A study of Mus musculus with 2 samples.

Results

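The genes described here are 39 genes of DNA replication and mitosis, taken by their GENCODE M21 symbols from the 21938 protein-coding genes on chromosomes 1 to 19, X and Y of the mouse mm10 assembly. They are 20 S phase genes (8 for licensing of replication origins, 5 for DNA synthesis, 3 G1/S cyclins and kinase, 4 E2F factors) and 19 mitotic genes (8 G2/M cyclins, kinases and regulator, 5 for the spindle checkpoint and anaphase, 6 for chromosomes, kinetochores and the spindle). They were examined in DNase-seq of the urinary bladder from 2 untreated female B6CASTF1/J mice aged 36 days, the F1 cross of C57BL/6J and CAST/EiJ. Each animal gave 1 library, and both libraries form a single group without a control, so errors here are the spread over this pair of animals, and no groups could be tested against each other. The labels name separate biosamples and animal numbers 5 and 6 but the same donor record for both.

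Cells that divide copy their DNA in S phase and separate it in mitosis, and the genes for each step are switched on in turn. E2F factors bind the promoters of replication genes and are held back by the RB family of proteins. In resting cells the DREAM complex, which holds an E2F factor and the DNA-binding protein LIN54, sits at E2F sites and at the cell cycle genes homology region (CHR) and keeps the genes off. NF-Y, a trimer that binds the CCAAT box, acts on many mitotic promoters, often beside a CHR. The epithelium of the bladder turns over slowly in the resting animal and divides quickly after injury. DNase I cuts DNA that is free of nucleosomes, and a protein bound inside such a stretch leaves a short protected footprint.

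In both animals a gene start was called open when a deposited peak came within 500 bp of the gene's most upstream annotated 5' end, and its height was that of the highest such peak. Height is the authors' signal, whose scaling is not given in the sources used here, and it is used without a unit. The lists held 117773 and 102671 peaks and 280105 and 247833 footprints in replicates 1 and 2, and heights came in whole steps of 0.00789 and 0.00849. A motif match was counted in a footprint when it lay wholly inside a footprint extended by 5 bp on either side, and only matches that did so in both animals are called footprinted below. A match is a spelling, not a bound protein. The tissue is a mixture of cells, so fewer cells with an open site and a site less open in each cell cannot be told apart. All 5 urothelial markers, 4 of 4 smooth muscle markers, 3 of 3 fibroblast markers and 2 of 2 endothelial markers were open at their starts in both animals, while the leukocyte genes Ptprc and Cd3e and the liver and islet genes Alb and Ins2 had no peak at the start in either animal.

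The motifs searched, on both strands, were CCAAT for NF-Y, TTNNCGC with C or G at each N (4 words) for E2F, and TTTGAA for the CHR. The sequences below come from the RefSeq assembly GRCm38.p6, which holds the C57BL/6J allele only, and run 5' to 3' on the strand of the gene with footprinted matches in capitals. On the opposite strand the CCAAT box reads ATTGG and the CHR reads TTCAAA. The E2F word reads GCGNNAA there. Positions count from 0 at the annotated start and are negative upstream.

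Mcm5 and Mcm6 encode subunits of the replicative helicase and show footprinted E2F words upstream of an S phase gene. The Mcm5 stretch is chr8:75109335-75109529 on the plus strand, -234 to -40, and holds 3 E2F words, 2 CCAAT boxes and the cyclic AMP response element (CRE) word TGACGTCA in capitals. The Mcm6 stretch is chr1:128359795-128359824 on the minus strand, -160 to -131. Its 2 E2F words lie on opposite strands and share 4 bases.
Mcm5: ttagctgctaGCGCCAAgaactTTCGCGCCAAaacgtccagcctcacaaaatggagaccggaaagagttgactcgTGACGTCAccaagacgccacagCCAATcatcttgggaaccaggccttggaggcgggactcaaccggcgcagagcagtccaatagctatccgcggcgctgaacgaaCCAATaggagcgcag
Mcm6: gcgtatgcttTTGGCGCGAAaagtgcgtgc

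Ccnb1, Cdk1 and Foxm1, which encode cyclin B1, its partner kinase and a mitotic transcription factor, show E2F words in mitotic genes. The Ccnb1 stretch is chr13:100786571-100786598 on the minus strand, -28 to -1. The Cdk1 stretch is chr10:69352968-69353100 on the minus strand, -162 to -30. The Foxm1 stretch is chr6:128362945-128362968 on the plus strand, -22 to 1, with its last 2 bases in the annotated exon. In Ccnb1 and Foxm1 the E2F word and the CCAAT box share 4 bases, and in Foxm1 the CHR follows the CCAAT box with no base between them.
Ccnb1: ggaacccgcgGCGCCAATgggaagagag
Cdk1: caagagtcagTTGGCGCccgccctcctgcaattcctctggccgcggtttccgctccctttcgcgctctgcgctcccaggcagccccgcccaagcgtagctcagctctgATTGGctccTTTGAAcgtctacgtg
Foxm1: cgctccgccgGCGCCAATTTCAAA

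Ccnb2 and Aurka carry CCAAT boxes on the same strand, 33 bp apart in Ccnb2 and, in a single pair, 32 bp apart in Aurka. The Ccnb2 stretch is chr9:70421545-70421651 on the minus strand, -104 to 2, with its last 3 bases in the exon. The Aurka stretch is chr2:172370575-172370631 on the minus strand, -96 to -40. Ccnb2 encodes cyclin B2 and Aurka the spindle kinase Aurora A. In Ccnb2 the CCAAT boxes in lower case were in a footprint of 1 animal or of neither.
Ccnb2: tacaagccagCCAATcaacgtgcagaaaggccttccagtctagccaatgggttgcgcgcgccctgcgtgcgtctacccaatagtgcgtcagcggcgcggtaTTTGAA
Aurka: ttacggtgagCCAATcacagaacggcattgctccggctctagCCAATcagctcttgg

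Top2a, Kif11 and Mki67 show the CHR in genes for mitotic chromosomes and the spindle. They encode topoisomerase II alpha, a spindle motor and the Ki-67 protein of the chromosome surface. The Top2a stretch is chr11:99024233-99024378 on the minus strand, -189 to -44, with 3 footprinted CCAAT boxes beside its CHR. The Kif11 stretch is chr19:37376353-37376378 on the plus strand, -50 to -25, and the Mki67 stretch is chr7:135716480-135716505 on the minus strand, -144 to -119. Neither of the last pair held a footprinted CCAAT box.
Top2a: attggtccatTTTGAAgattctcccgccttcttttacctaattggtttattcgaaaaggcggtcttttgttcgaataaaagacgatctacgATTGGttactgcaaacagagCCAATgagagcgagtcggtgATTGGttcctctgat
Kif11: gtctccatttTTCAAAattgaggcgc
Mki67: agcgccagaaTTTGAAccgccgtttt

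The starts of all the cell cycle genes were open in this tissue. A peak lay at the start in both animals for 39 of 39 genes, against 59.6% of all protein-coding genes (13069 of 21938), and the 39 also had a peak in the smaller lists of both animals, against 55.1% of all genes. Most starts of these genes are rich in CpG dinucleotides, and such starts are open in most tissues. A start window with at least 50% G or C and a CpG content at least 0.6 times that expected from its base composition was found in 34 of 39 genes (87.2%), against 44.4% of all genes. Among CpG-rich genes 94.6% were open (9214 of 9738), so a count of 39 lies close to what CpG-rich starts give as a class. The 5 CpG-poor members (Mcm2, Mcm7, Tyms, Tk1 and Cdk1) were open as well, with median heights of 9.77 and 6.40 in replicates 1 and 2, against 6.58 and 4.33 at the CpG-rich members. A footprint lay in the start window of 39 of 39 genes in both animals, against 57.1% of all genes and 92.9% of CpG-rich genes.

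Over the 39 starts the middle height was 6.60 for replicate 1 and 4.55 for replicate 2 (medians), against 5.03 and 3.61 over all genes open in both animals and 6.43 and 4.41 over the CpG-rich ones. Averaged over the animals the member median was 5.58 ± 1.45, against 4.32 ± 1.00 for all open genes (SD, n = 2 each). Within each animal the members were higher than all open genes. These SDs hold the offset between the libraries, which members and all open genes share. They are therefore not an error of the difference within an animal. Of the 39 genes, 25 lay above the median height of all open genes, where 50% of those genes lie. In the top decile, which holds 10% of open genes, lay 4 members, and none lay in the bottom decile. Of the 9214 open CpG-rich genes, 5654 lay above that median and 1215 in the top decile. Of the 34 CpG-rich members, 22 and 3 did so, so these counts lie near those of CpG-rich starts as a class. The S phase genes had median heights of 8.20 and 4.98 and the mitotic genes 5.84 and 3.41, with ranges over genes that overlap. All 4 top-decile members (Ccne1, Mcm5, Mcm4 and Mcm7) are S phase genes.

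**Figure D1:**
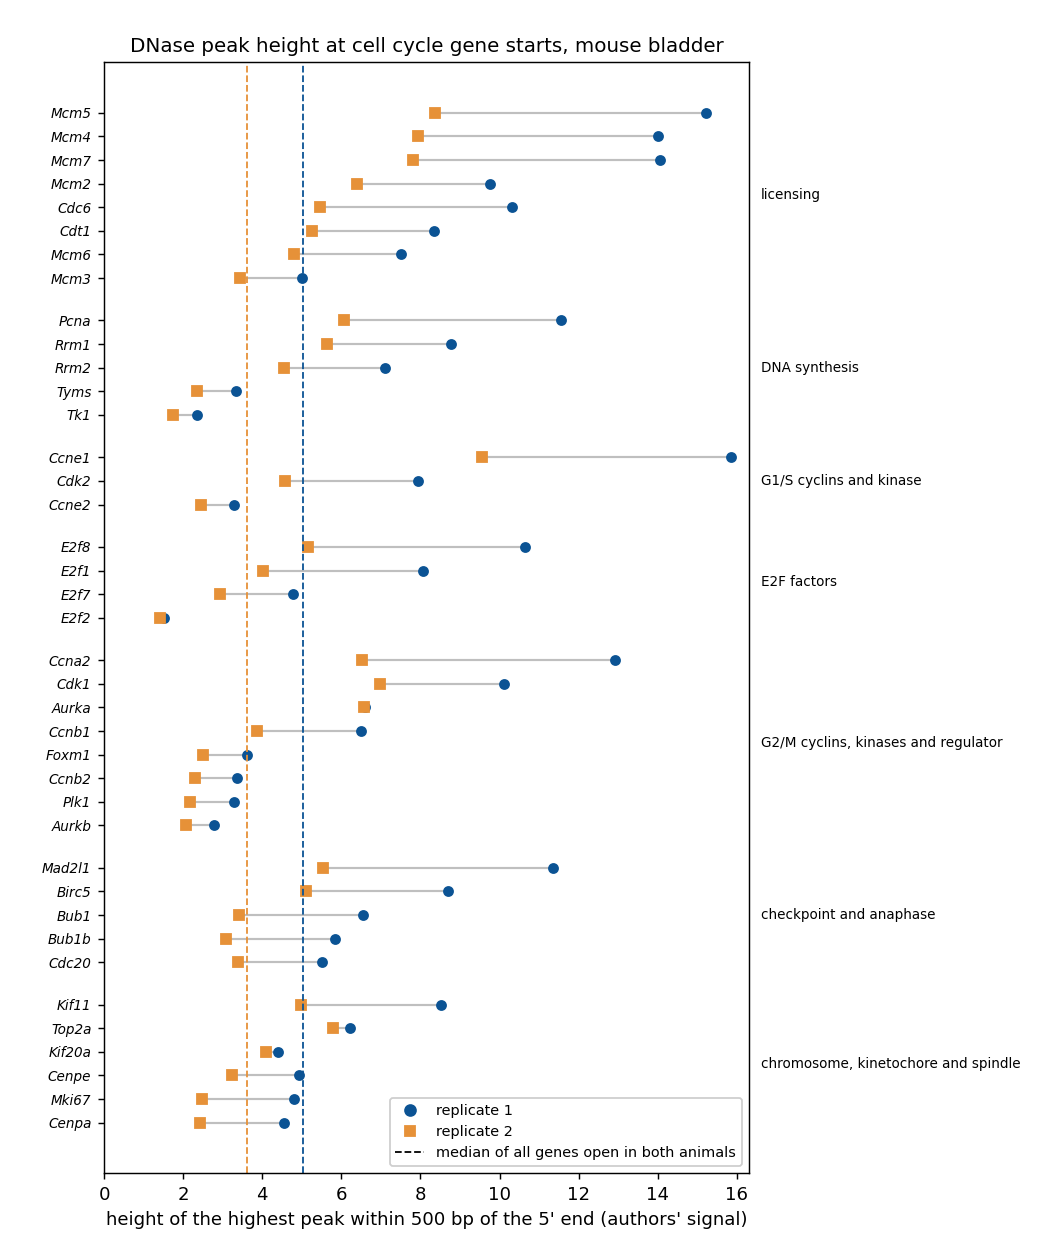
Height of the highest DNase peak within 500 bp of the 5' end of each of the 39 genes (horizontal axis, the authors' signal), with replicate 1 as circles and replicate 2 as squares, grouped by role. Dashed lines mark the medians of all genes open in both animals, 5.03 in replicate 1 and 3.61 in replicate 2, and the highest gene is Ccne1 and the lowest E2f2.

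The licensing genes load the MCM helicase onto replication origins and had the highest median of the 7 roles in both animals, at 10.05 in replicate 1 and 5.93 in replicate 2. Mcm5 reached 15.2 and 8.37, at percentile 96.1 of all open genes by its mean height. Mcm4 reached 14.0 and 7.94, and Mcm7 14.1 and 7.81. These 3 helicase subunits stood above the other subunits in both animals. Mcm2 had 9.77 and 6.40, Mcm6 had 7.52 and 4.80, and Mcm3 had 5.00 and 3.44, the lowest of the group. Cdc6, the ATPase that loads the helicase, had 10.3 and 5.47. Cdt1, its partner in loading, had 8.34 and 5.26. The peak of Mcm7 is centred 441.5 and 431.5 bp downstream of the most upstream annotated start, 1 of 7 annotated coding starts of that gene. Within 250 bp of the most upstream start Mcm7 had a peak of 1.16 in replicate 1, none in replicate 2 and no footprint in either animal.

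The genes for nucleotide supply and DNA synthesis spanned most of the range. Pcna, the sliding clamp of the DNA polymerases, had 11.6 in replicate 1 and 6.07 in replicate 2. The subunits of ribonucleotide reductase were similar to each other, with 8.76 and 5.65 at Rrm1 and 7.10 and 4.55 at Rrm2. Tyms, which makes thymidylate, had 3.35 and 2.35. Tk1, the cytosolic thymidine kinase, had 2.36 and 1.75, at percentile 26.5. Both thymidylate genes lay below the medians of all open genes in both animals.

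Ccne1, which encodes the E-type cyclin that drives entry into S phase, had the highest peak of the 39 genes, with 15.8 in replicate 1 and 9.56 in replicate 2 (percentile 97.6). The peak lay at chr7:38107541-38107780 in both animals, just upstream of the start. Ccne2, the other E-type cyclin, had 3.28 and 2.46 (percentile 35.1), so the paralogs lay far apart in both animals. Cdk2, the kinase that both cyclins bind, had 7.94 and 4.57. Among the E2F factors, the activator E2f1 had 8.06 and 4.01, and the repressors E2f8 and E2f7 had 10.6 and 5.16, and 4.77 and 2.92. E2f2, another activator, had the lowest peak of all, with 1.52 and 1.42 (percentile 19.1), centred at -253.5 and -243.5 bp and not covering the start. The peak of E2f8 was centred 495.5 and 475.5 bp downstream of the annotated start. Within 250 bp of that start E2f8 had heights of 2.34 and 1.66, and no footprint in replicate 2.

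Among the G2/M genes, Ccna2, which encodes cyclin A2, was highest with 12.9 in replicate 1 and 6.51 in replicate 2. Cdk1 had 10.1 and 6.97, and its partners Ccnb1 and Ccnb2 had 6.49 and 3.87, and 3.36 and 2.31. The kinases of the spindle and of cytokinesis differed among themselves. Aurka had 6.60 and 6.57, Plk1 had 3.29 and 2.17, and Aurkb had 2.79 and 2.06, the third lowest mean of the 39. Foxm1 had 3.61 and 2.50. Plk1, Aurkb, Foxm1 and Ccnb2 lay below the medians of all open genes in both animals.

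The spindle checkpoint genes delay anaphase until all chromosomes are attached. Mad2l1 was the highest of them, with 11.4 in replicate 1 and 5.55 in replicate 2. Bub1, a checkpoint kinase, had 6.55 and 3.41, and its relative Bub1b had 5.84 and 3.07. Cdc20, the activator of the anaphase-promoting complex that the checkpoint restrains, had 5.50 and 3.38. Birc5, which encodes survivin of the chromosomal passenger complex, had 8.71 and 5.11. The genes for chromosomes, kinetochores and the spindle had medians of 4.87 and 3.67. Kif11 had 8.51 and 4.97 and Top2a 6.22 and 5.78, above the medians of all open genes in both animals. The kinetochore genes Cenpa and Cenpe had 4.56 and 2.44, and 4.93 and 3.24. Kif20a, a motor of cytokinesis, had 4.41 and 4.10. Mki67, the usual marker of dividing cells, had 4.82 and 2.48 (percentile 43.4). Its start was open in both animals, at a height near the median of all open genes in replicate 1 (5.03) and under that in replicate 2 (3.61). The peak was centred at -209.5 and -219.5 bp and did not cover the start itself.

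The highest peak covered the annotated start itself in both animals for 27 of 39 genes, against 62.6% of all open genes. The start windows held a median of 611 bases in replicate 1 and 700 in replicate 2 with a local false discovery rate of at most 0.001, against 621 and 725 in all open genes. Both measures were thus near their values over open genes at large. A protein-coding gene on the opposite strand that starts within 1 kb upstream can share the open stretch. Such a gene was found for 4 of 39 genes, against 6.79% of all genes and 12.6% of CpG-rich genes. The pairs were Mcm4 with Prkdc, Aurka with Cstf1, Foxm1 with Rhno1, and Kif20a with Brd8. At these starts the share of each gene in the peak cannot be told apart. Partners that start downstream of the 5' end were not searched, so the pairs may be incomplete. In replicate 2, peaks 0.536 kb inside Tk1 and 0.794 kb inside Cdk2 lay at the starts of Afmid and Pmel.

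CCAAT boxes were footprinted at many of these starts. Of the 39 genes, 18 (46.2%) had a footprinted CCAAT box, against 8.52% of all genes and 15.7% of CpG-rich genes. A CCAAT box anywhere in the window was common in all of them, in 36 of 39 genes, against 70.7% of all genes and 64.4% of CpG-rich genes. The mitotic genes held 11 of the 18 (Aurka, Aurkb, Bub1, Ccnb1, Ccnb2, Cdk1, Cenpa, Foxm1, Kif20a, Plk1 and Top2a, of 19 genes), and the S phase genes held 7 (Cdk2, E2f7, E2f8, Mcm3, Mcm5, Mcm7 and Rrm1, of 20 genes). Where CCAAT boxes lay in a peak of both animals, 20 of 54 were footprinted in these genes (37.0%), against 30.03% over all genes. The footprinted boxes lay close to the start, with 18 of 22 within 150 bp upstream (81.8%), against 59.8% over all genes, and with a median position of -52.5.

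Single genes show how these boxes are placed. Top2a held 3 footprinted CCAAT boxes, at -58, -78 and -98, and the pair nearest the start lay in a footprint of 35 bp with the same ends in both animals. Aurka held 2, at -54 and -86, and Mcm5 held 2, at -54 and -137. Cdk1 held 1 at -54 inside a footprint of 35 bp in replicate 1 and 34 bp in replicate 2. Aurkb had its box at -51 and Cdk2 at -65, so that 6 genes had one between -51 and -65. In Bub1 the box lay at -36, in Mcm3 at -32, in Plk1 at -18, in Ccnb1 at -15, in E2f7 at -14 and in Foxm1 at -9. Those of Rrm1 and Ccnb2 lay further up, at -91 and -94. Only Cenpa (23), Kif20a (294), E2f8 (441) and Mcm7 (467) had theirs downstream of the annotated start, and the boxes of E2f8 and Mcm7 lie under the displaced peaks of these genes.

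The count depends on how strictly a match must sit in a footprint. With the extension of 5 bp a box can lie beside the deposited footprint. The box of Cdk2 in replicate 1, and those of E2f7 and Plk1 in replicate 2, shared no base with it. With no extension, 7 genes kept a CCAAT box wholly inside footprints of both animals (Ccnb1, Cdk1, Cenpa, E2f8, Foxm1, Kif20a and Top2a). These are 17.9%, against 3.88% of all genes and 7.28% of CpG-rich genes. With purines required in front and G or C and a purine behind, 11 genes remained, 28.2% against 3.18% of all genes and 6.09% of CpG-rich genes.

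**Figure D2:**
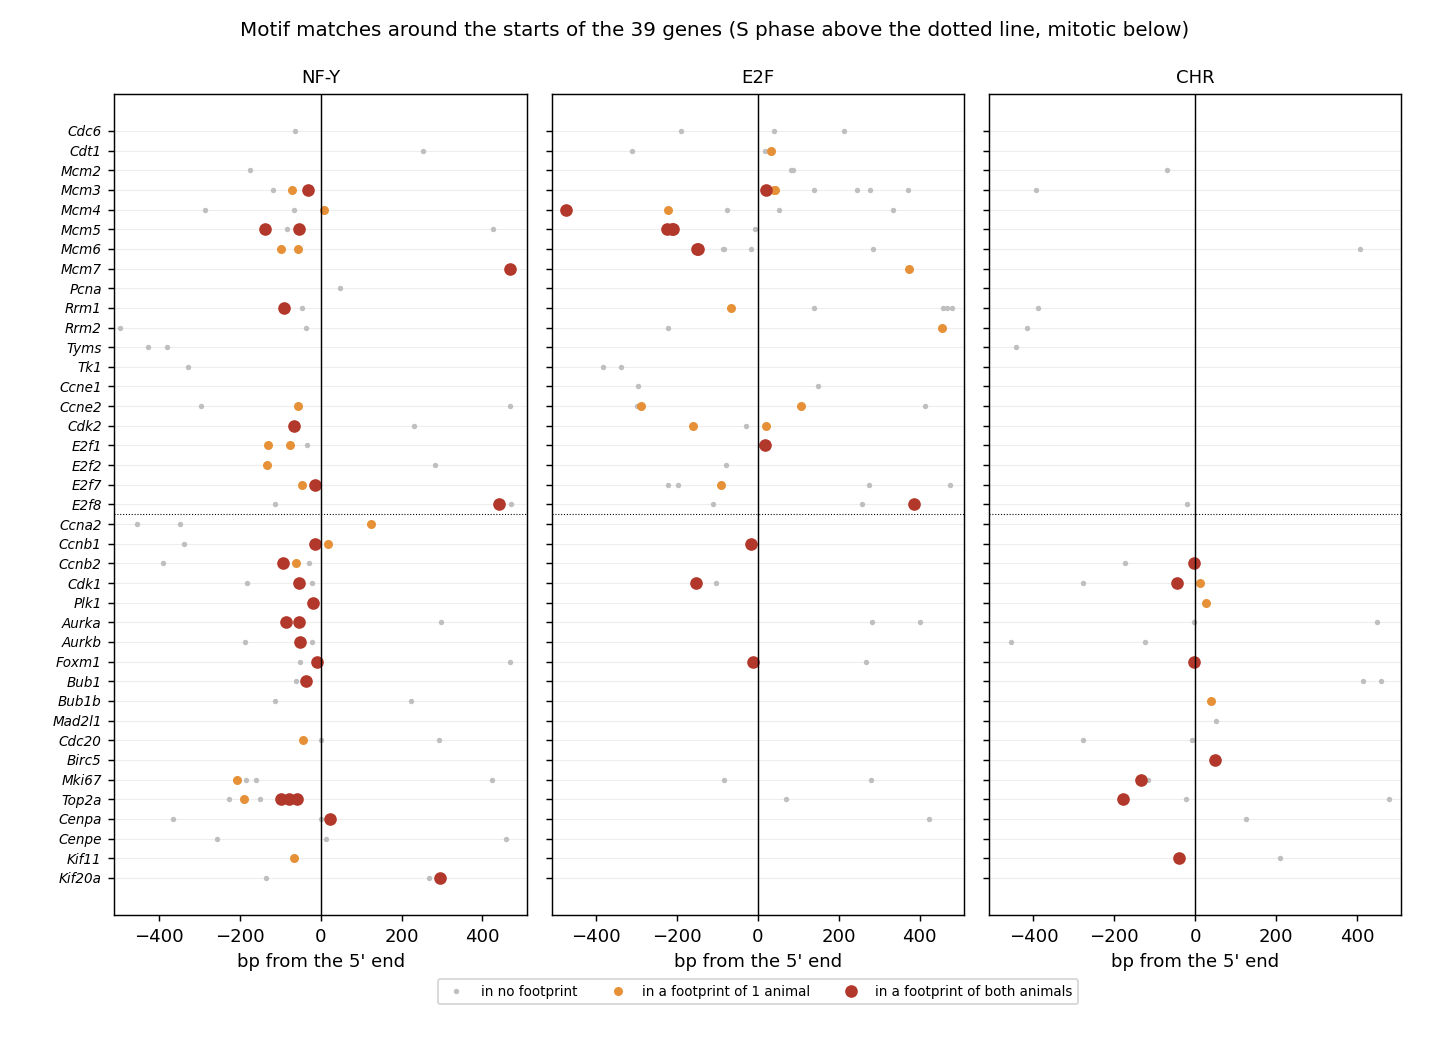
Positions of NF-Y, E2F and CHR words within 500 bp of the 5' end (horizontal axis, bp, negative upstream) for each of the 39 genes, with large red points for matches in footprints of both animals, orange for 1 animal and grey for none. Red points of the NF-Y panel gather just upstream of the start, and the red points of the CHR panel all lie below the dotted line, in the mitotic genes.

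E2F words were footprinted in 9 of 39 genes (23.1%), against 4.35% of all genes and 8.63% of CpG-rich genes. They were present in the window of 25 genes, against 28.4% of all genes and 47.7% of CpG-rich genes. They lay in 18 of 20 S phase windows and 7 of 19 mitotic windows, and 6 S phase genes (E2f1, E2f8, Mcm3, Mcm4, Mcm5 and Mcm6) and 3 mitotic genes (Ccnb1, Cdk1 and Foxm1) had a footprinted one. Of the 6 genes for the MCM helicase, 4 were thus among them. Of 27 E2F words in a peak of both animals, 9 were footprinted (33.3%), against 29.1% over all genes. This share of words was close to that over all genes, unlike the share of genes with a footprinted word. Of the 12 footprinted E2F words, 4 lay within 150 bp upstream (33.3%), against 39.9% over all genes. Mcm5 held a cluster of 3 footprinted words at -224, -212 and -209, under a footprint of 31 bp in replicate 1 and 27 bp in replicate 2. Mcm6 held 2 overlapping words at -150 and -147, Mcm3 held 1 at 19, and Mcm4 held 1 at -474. E2f1 had its own footprinted E2F word at 18 and E2f8 at 385. In Cdk1 the word lay at -152, in Ccnb1 at -18 and in Foxm1 at -12. The count moved with the spelling and the animal. A footprinted word of 8 bases, with a further T in front, was found in 5 genes (12.8%, against 1.03% of all genes and 2.15% of CpG-rich genes). With replicate 1 taken by itself 14 genes had a footprinted word, a looser rule for which no share over all genes was taken.

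All footprinted CHR words at these starts were in mitotic genes. Such a word was found in 7 of 39 genes (17.9%), against 0.748% of all genes and 1.35% of CpG-rich genes, and these 7 are 7 of the 19 mitotic genes and 0 of the 20 S phase genes. The word itself, footprinted or not, was in 15 of 19 mitotic windows and 7 of 20 S phase windows, and 44.7% of all windows and 32.9% of CpG-rich windows hold it. Where CHR words lay in a peak of both animals, 6 of 12 were footprinted (50%), against 14.4% over all genes. Kif11 had its CHR at -40 in a footprint of 33 bp in replicate 1 and 28 bp in replicate 2. Cdk1 had it at -45, and Ccnb2 and Foxm1 right at the start, at -3 and -4. Top2a had it at -179 and Mki67 at -134. Birc5 had it at 50, inside the transcribed stretch. With no extension of the footprints only Kif11 and Top2a kept it (5.13%, against 0.205% of all genes and 0.370% of CpG-rich genes). With TTCGAA allowed as well the count was 10, by the addition of Aurkb, Bub1 and the S phase gene Mcm7. These are 25.6%, against 0.9299% of all genes and 1.65% of CpG-rich genes.

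Combinations of these words separate the genes further. A footprinted CCAAT box and a footprinted CHR occurred together in 4 of 39 genes (Ccnb2, Cdk1, Foxm1 and Top2a), all mitotic, against 0.273% of all genes (60 of 21938) and 0.503% of CpG-rich genes. In Cdk1 there are 4 bases between the CCAAT box and the CHR, and in Foxm1 there are none, while in Ccnb2 they stand 86 bases apart and in Top2a at least 75. A footprinted CCAAT box and a footprinted E2F word occurred together in 6 genes (Ccnb1, Cdk1, E2f8, Foxm1, Mcm3 and Mcm5). The shares were 1.09% of all genes and 2.22% of CpG-rich genes. In Ccnb1 and Foxm1 these words share 4 bases and lie in the same footprint, so the same stretch counts for both. Cdk1 and Foxm1 had all 3, against 0.0638% of all genes (14 of 21938) and 0.123% of CpG-rich genes, and in Foxm1 they lie against the start, which the footprint of replicate 2 covers.

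Any of the 3 words was footprinted in 24 of 39 genes, against 12.1% of all genes and 22.7% of CpG-rich genes. The 15 genes with none were Ccne1, Ccne2, Cdc6, Cdt1, E2f2, Mcm2, Pcna, Rrm2, Tk1 and Tyms of the S phase genes, and Bub1b, Ccna2, Cdc20, Cenpe and Mad2l1 of the mitotic genes. Heights of both sets were close, with medians of 6.58 and 4.34 at the 24 genes with a word, against 7.10 and 4.55 at the 15 without. Ccne1, the highest gene of all, had E2F words at -296 and 149 and neither was footprinted. Cdc6 had E2F words at -191, 41 and 212 and a CCAAT box at -63, none of them footprinted.

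Other common promoter words were searched in the same way. The GC box GGGCGG, the spelling bound by SP and KLF factors, was footprinted in 24 of 39 genes (61.5%), against 30.2% of all genes and 57% of CpG-rich genes, and windows of 60.4% of all genes hold it. The ETS word CCGGAAG was footprinted in 2 genes (E2f7 and Mcm4), against 5.79% of all genes and 11.2% of CpG-rich genes, and 19.2% of all windows hold it. The palindromic NRF1 word was footprinted in Mcm4 only, against 1.48% of all genes and 2.97% of CpG-rich genes, and 1.68% of windows hold it. The CRE word TGACGTCA was in the windows of 3 genes and footprinted in each: Mcm5 at -159, Cenpe at -8 and Ccna2 at 99, against 2.09% of all genes and 3.99% of CpG-rich genes, with 3.32% of windows holding it. In Ccna2 and Cenpe, which had none of the 3 cell cycle words footprinted, the CRE lay in footprints of 25 and 22 bp, and of 27 and 20 bp, in replicates 1 and 2. The CRE word shares no base with the CCAAT or E2F words printed for Mcm5.

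**Figure D3:**
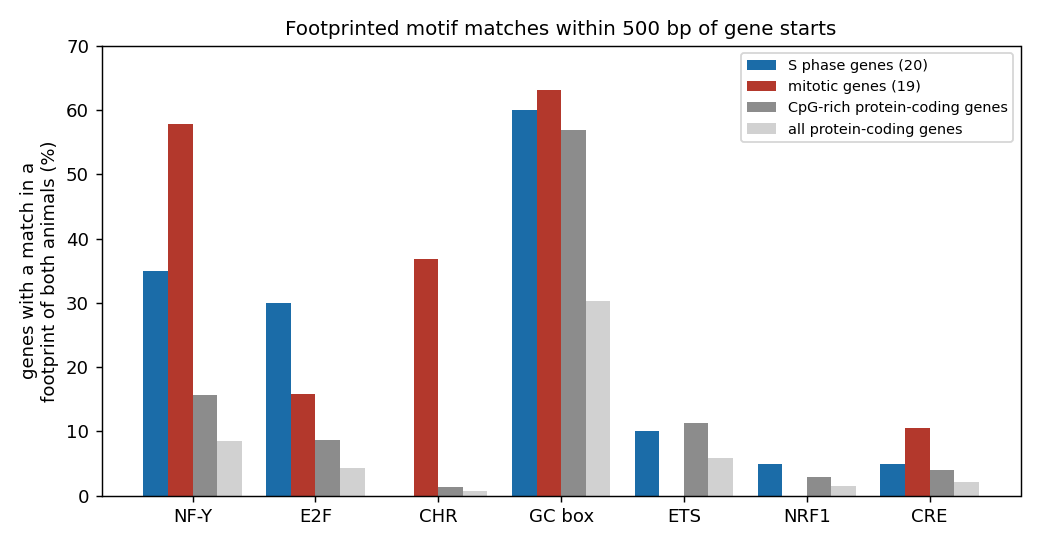
Share of genes (vertical axis, %) with a word in footprints of both animals within 500 bp of the start, for S phase genes, mitotic genes, CpG-rich protein-coding genes and all protein-coding genes. NF-Y and E2F bars of both gene groups and the CHR bar of the mitotic genes stand above the grey bars, and GC box bars lie close to that of the CpG-rich genes.

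CCAAT boxes of the same strand were spaced at 31 to 34 bp in several mitotic genes, a range chosen after the distances had been seen. Such a pair lay in the windows of 5 of 39 genes (12.8%), against 1.57% of all genes and 2.52% of CpG-rich genes. Because the range was picked from the distances in these genes, the comparison favours them and tests nothing. Of their 22 same-strand pairs up to 60 bp apart, 6 fell in the range. Ccnb2 had 2 pairs, each at 33 bp, formed by boxes at -94, -61 and -28. Aurka (-86 and -54), Cdk1 (-54 and -22), Ccnb1 (-15 and 17) and the S phase gene E2f7 (-46 and -14) had pairs at 32 bp. At least 1 box of each of these 5 genes was footprinted, and in Aurka both were.

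Between the animals, peaks at every one of the 39 starts were lower in replicate 2, as were 89.2% of all open genes. The median log2 difference, replicate 2 minus replicate 1, was -0.70 over the 39 genes and -0.54 over all open genes, which leaves -0.16 relative to all open genes. High peaks differed more than low ones throughout the data: the median was -0.16 in the lowest height decile of all open genes and -0.83 in the highest. Set against open genes of the same height decile, the member median was -0.11. The scaling of the heights is not stated, so these differences describe the pair of libraries.

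The 39 genes did not move alike. The largest differences were those of E2f8 (5.16 in replicate 2 and 10.6 in replicate 1), Mad2l1 (5.55 and 11.4) and E2f1 (4.01 and 8.06). They were -1.05, -1.03 and -1.01, and that of E2f8 belongs to the peak displaced from its annotated start. Aurka (6.57 in replicate 2 and 6.60 in replicate 1) differed by -0.01, and Kif20a and E2f2 both by -0.10. Top2a followed at -0.11. Against genes of their own height decile, Aurka lay at percentile 97.5 and Top2a at percentile 95.3, and Mki67 at percentile 3.52. At Aurka the calls themselves differ, with 1 wide peak in replicate 2, chr2:172370581-172370980, where replicate 1 has 2 peaks and the higher is chr2:172370561-172370760. At Top2a a single peak was called in each animal, centred at -71.5 bp in both.

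**Figure D4:**
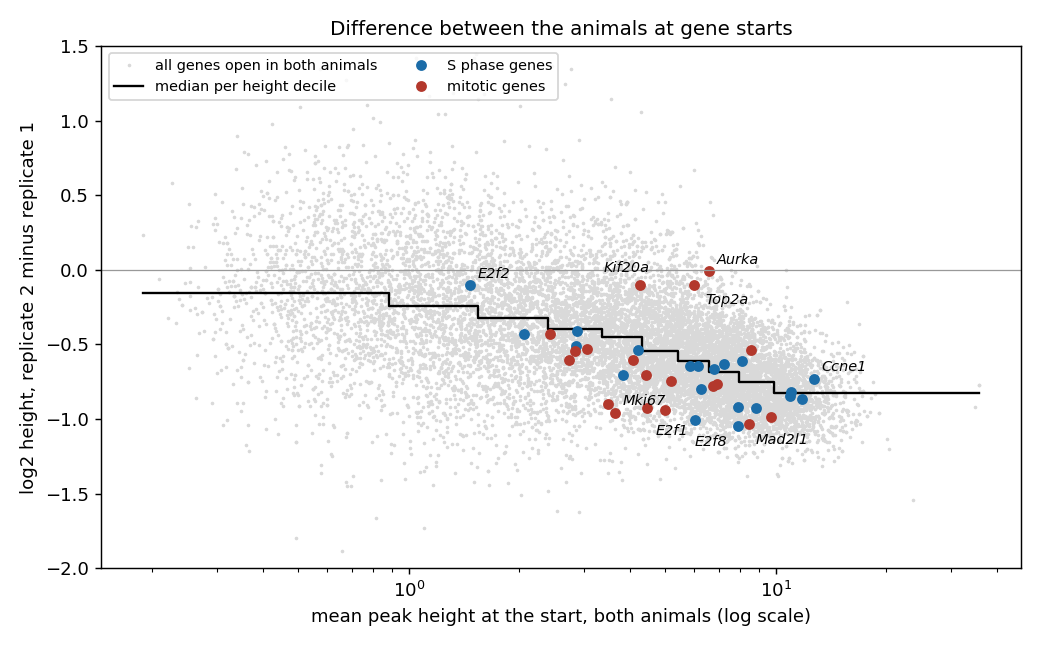
Log2 difference in peak height, replicate 2 minus replicate 1 (vertical axis), against mean height at the start (horizontal axis, log scale), for all genes open in both animals in grey, S phase genes in blue and mitotic genes in red, with the median of each height decile as a stepped line. All 39 genes lie at or below 0, and Aurka, Top2a and Kif20a lie above the line.

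Peaks away from the starts were counted between 10 kb before and 10 kb after the gene. The median over the 39 genes was 2 in each animal, against 3 in replicate 1 and 2 in replicate 2 for all protein-coding genes. Per 10 kb the 39 genes had 0.576 ± 0.010, against 0.519 ± 0.066 for all genes (SD, n = 2 each). The gap came from replicate 2, with 0.582 against 0.472, while replicate 1 had 0.569 against 0.565. The small SD of the members rests on 2 medians only. No such peak in either animal was found for 7 of 39 genes (Mcm4, Tyms, Plk1, Mad2l1, Birc5, Top2a and Cenpa), against 19.3% of all genes and 5.31% of CpG-rich genes, whose median density was 0.670 ± 0.074 per 10 kb. Mitotic genes had a median of 0.316 per 10 kb and S phase genes 0.738. The density rests on what is counted: with the gene body alone the median was 0, against 0.239 for all genes, and with 50 kb on either side it was 0.859, against 0.639. In the smaller peak lists it was 0.330, against 0.315. The 39 genes are short, with a median length of 13.5 kb, against 17.4 kb for all genes and 26.5 kb for CpG-rich genes. A short gene has less room for such peaks, and the part of length in these counts was not tested.

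The 39 genes had 114 such peaks in replicate 1 and 112 in replicate 2, of which 92 and 93 overlapped a peak of the other animal. Their median heights, 1.26 and 0.934, were well under those at the starts. The highest lay at starts of neighbouring genes, as 13.9 and 8.41 at Cds2 beside Pcna, 11.01 and 6.73 at Aprt beside Cdt1, and 10.9 and 8.54 at Rab5b beside Cdk2. In all, 19 peaks in replicate 1 and 22 in replicate 2 lay at another start. Of those that did not, the highest was in the body of Mcm7, at chr5:138171021-138171300 in replicate 1, 1.26 kb from the start, with 10.5 in replicate 1 and 6.68 in replicate 2. The next was centred at -3.84 kb from the start of Aurkb, at chr11:69041701-69041920 in both animals, with 7.90 and 5.86.

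E2f2, Tk1, Aurkb, Cdc6 and Foxm1 had the most peaks away from the start. E2f2 had 11 in replicate 1 and 9 in replicate 2, most of them in its gene body, and the highest, centred at -8.70 and -8.71 kb, reached 4.15 and 3.48. The upstream peak was higher than its start peak of 1.52 and 1.42. In replicate 2 Aurkb had more peaks than E2f2, and per 10 kb Aurkb (3.46 and 3.84) and Tk1 (3.27 and 2.94) exceeded E2f2 (2.52 and 2.06) in both animals. Tk1 had 10 and 9. Aurkb had 9 and 10, mostly in the 10 kb upstream of the gene, and the highest of these also exceeded its start peak of 2.79 and 2.06. Cdc6 had 9 in both animals, and Foxm1 had 6 and 7, of which the highest (8.40 and 5.05) lay at the start of Tulp3.

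Away from the starts, cell cycle words in footprints of both animals were looked for in the peaks of the 39 genes only, with no count over all genes. CHR words in footprints of both animals lay at 1.17 kb from the Tk1 start, at 2.08 kb from the Rrm2 start and at -5.21 kb from the Aurkb start. Footprinted CCAAT boxes lay at neighbouring starts beside Cdk2 (2 boxes at Rab5b), Foxm1 (Tulp3), Cdc20 (Elovl1) and Cenpe (Bdh2, 68.54 kb from the Cenpe start). No E2F word lay in footprints of both animals away from a start.

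**Figure D5:**
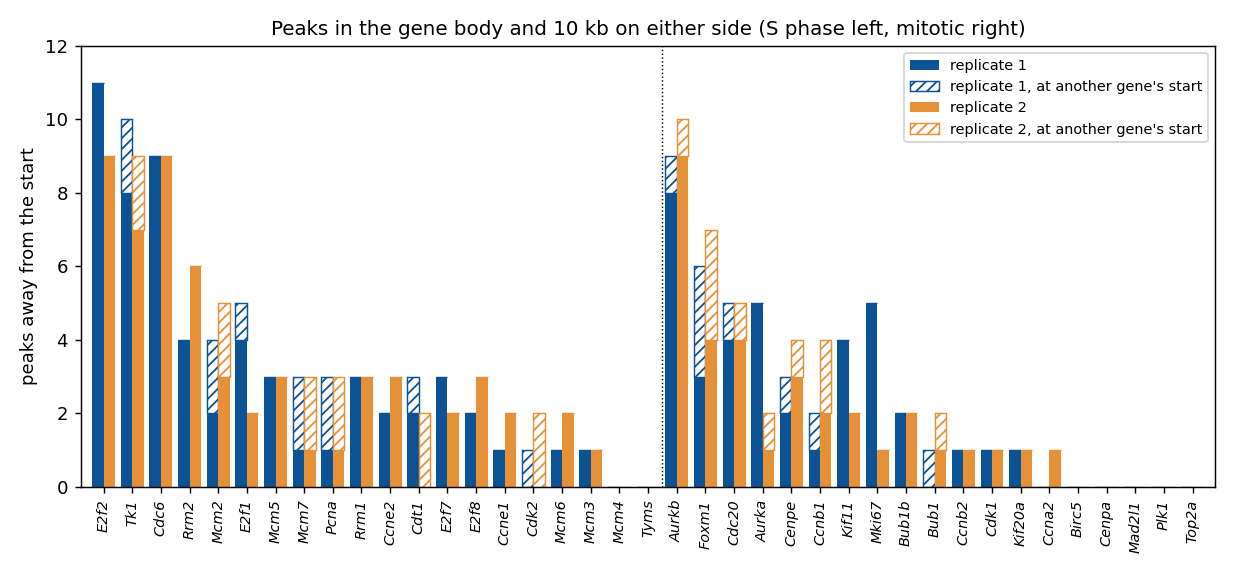
Number of peaks from 10 kb before to 10 kb after the gene, start window left out (vertical axis), for each of the 39 genes in replicate 1 (blue) and replicate 2 (orange), with peaks at the start of another gene hatched. E2f2, Tk1 and Cdc6 lead the S phase genes and Aurkb leads the mitotic genes, and 7 genes have none in either animal.

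The wider pathway was examined with 74 further genes in 4 lists, and 69 of them were open at the start in both animals, against 59.6% of all genes and 94.6% of CpG-rich genes. The open share of the 74 genes, 93.2%, lies close to that of CpG-rich genes as a class, and 58 of them are CpG-rich. Of the RB, DREAM and NF-Y proteins 17 of 18 were open, with the highest peaks at Nfya (18.4 in replicate 1 and 10.4 in replicate 2), a subunit of NF-Y itself, E2f3 (13.9 and 6.95), an activating E2F, and Rbl2 (9.82 and 6.85), the p130 protein of DREAM. Of the G1 cyclins and CDK inhibitors 9 of 10 were open, led by Cdk4 (13.4 and 6.12), Cdkn2b (9.39 and 6.17) and Cdkn1b (6.62 and 3.94), a G1 kinase and 2 CDK inhibitors. Of the replication fork genes 24 of 26 were open, led by Pold1 (19.8 and 10.99), the catalytic subunit of DNA polymerase delta, and Gins2 (19.3 and 9.07) and Gins4 (14.0 and 6.80), subunits of the active helicase. Of the further mitotic genes 19 of 20 were open, led by Prc1 (13.6 and 9.62), Ect2 (13.7 and 7.94) and Ube2c (12.8 and 6.91), which act in cytokinesis and anaphase. The 5 without a peak at the most upstream start were Nfyc, Cdkn1a, Gins1, Lig1 and Cdca8, and with any annotated coding start accepted 74 of 74 were open, against 64.1% of all genes. The open starts include genes that restrain the cycle (Rbl2, Cdkn2b and Cdkn1b) and genes that drive it, and DNase data do not show which of them were transcribed.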

How the data were processed

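The members, their roles, the gene lists, the motif words and most alternatives were chosen with earlier results of these data known. DNase-seq of the bladder of 2 mice was read from the deposited lists, all on mm10 per the labels. Each peak carries a height, a signal computed by the authors; the sources used here state neither its scaling nor the caller. Of the deposited p-value columns, 1 gives a false discovery rate per run of bases (listed up to 0.05) and the other holds 0.01 for all footprints, which therefore have no ranking. Peaks and footprints were derived per animal, according to the deposited description.

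From the authors' 2 peak lists per animal the larger was used. Read depth is not stated, and heights are whole multiples of 0.00789 and 0.00849 within 0.05 of a step (100% of peaks in both animals). Genes came from GENCODE M21 and sequence from RefSeq GRCm38.p6, whose chromosome lengths were checked against the peak coordinates. Peaks and footprints overlapped a window when they shared at least 1 bp. Counts and medians over the 39 genes are given beside those over all protein-coding genes, with no test. Genes described in detail were the 5 highest and 5 lowest, the 5 with most peaks away from the start, the 3 largest and 3 smallest differences between animals, and every gene with a footprinted NF-Y, E2F or CHR word. A few of the marker genes examined are not reported here. The scripts were tested on simulated data. Python 3.11.15, numpy 2.4.6, pandas 2.3.3, pysam 0.24.0, bedtools 2.31.1 and matplotlib 3.10.9 were used.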

Additional observations from a re-analysis of the deposited data

How the results depend on the processing

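Of 63 alternatives, 52 left the result within 1.5 times of a count or within a spread of a median, and 11 did not. The spread was that between the animals for height and density. For the difference between the animals it was the SD over the 39 genes, 0.268. The median height of 6.00 over the 39 genes was 4.55 without replicate 1 and 6.60 without replicate 2. The median density of 0.576 peaks per 10 kb away from the start was 0.330 in the smaller peak lists, 0.250 in the higher 50% of peaks, 0 with the gene body alone and 0.859 with 50 kb on either side, and 0.569 to 0.582 with an animal left out. Without an extension of the footprints the count of genes with a footprinted CCAAT box was 7 in place of 18 and that with a CHR 2 in place of 7. The CCAAT box with flanking bases gave 11 genes, and the E2F word of 8 bases gave 5 in place of 9. With an animal left out, the counts were 39 for peaks, 39 for footprints, 21 to 25 for NF-Y, 12 to 14 for E2F, 8 for the CHR and 69 for the further pathway genes. For the footprint, NF-Y, E2F and CHR counts no share over all genes was taken with an animal left out. The median difference between the animals was -0.70 without centring. Setting it against genes of the same height decile, an alternative chosen after seeing the data, gave -0.11 in place of -0.16. The causes were not tested.

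No paired analysis was possible because the samples form a single group. With 2 animals the spread is known poorly. The depth of the libraries is not stated, so no counting error can be given, and a start without a peak is not shown to be closed.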
